A study of Mus musculus with 6 samples.

Results

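The genes described here fold, modify, import and dispose of proteins in the endoplasmic reticulum (ER): chaperones and disulfide isomerases of its lumen, the sensors of ER stress, the degradation machinery, and the channel through which new proteins enter. A list of 35 such genes was followed across control and Jmjd1c knockdown mouse embryonic stem cells. A gene was measured by the probe set that carried its symbol alone in the platform annotation and had the highest mean signal over all arrays, which gave 34 of the 35 genes. All 34 were above the limit on low signal, among 12684 of 18193 genes that were. The missing gene, Sec61g, has a probe set that carries several symbols and is not reported. The cells were J1, a mouse embryonic stem cell line, grown on gelatin in medium with 15% fetal bovine serum and 1000 U/ml leukemia inhibitory factor, which keeps such cells undifferentiated. All of them had received the pLKO.1 lentiviral vector and had been selected with puromycin (1.5 ug/ml, 2 days, from 1 day after infection) before 4 further days of culture. The control group (shNT, labelled wild type) carried a non-targeting short hairpin RNA, and 2 knockdown groups, labelled Jmjd1c knockdown, carried the hairpins shJmjd1c#3 (sh3) or shJmjd1c#4 (sh4). The Jmjd1c protein belongs to the JmjC class of histone demethylases. Each group had 2 arrays, called biological replicates in the labels, so 6 arrays were compared. Their number limits the precision, and no label states whether replicates of different groups were prepared together.

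Proteins bound for secretion or for membranes are threaded through the Sec61 channel into the ER, often with the help of the translocon-associated protein (TRAP) complex. There they are folded by Hspa5 (BiP), Hsp90b1 (Grp94) and their co-chaperones, by the lectin chaperones calnexin and calreticulin, and by disulfide isomerases. Proteins that fail to fold are recognised, pulled back to the cytosol by a ligase complex around Sel1l and Syvn1 (Hrd1), and degraded. When unfolded proteins build up, the membrane sensors Ern1 (IRE1), Eif2ak3 (PERK) and Atf6 start the unfolded protein response, in which Xbp1 and Atf6 raise transcription of the folding and degradation genes. The response acts in most cells and is strongest in professional secretory cells such as plasma cells and the exocrine pancreas. Many of its targets share a promoter sequence, the ER stress response element (ERSE), which pairs a CCAAT box with a CCACG box.

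The promoters of the genes on which the results turn are shown first, with RefSeq starts on build GRCm38.p6. Dnajc3 carries an exact match to the ERSE, and Ssr1, like most of the genes searched, does not. Of the 35 listed genes, 29 had a RefSeq promoter window, from 250 bases before to 50 bases after an annotated start. The full ERSE, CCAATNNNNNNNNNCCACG on either strand, was in 39 of 32851 such windows (0.119%) and in the windows of 9 of the 29 genes. These were Calr, Canx, Creld2, Derl3, Dnajc3, Hsp90b1, Hspa5, Pdia6 and Syvn1. The related element ERSE-II, ATTGG and CCACG with 1 base between them, was in 12 windows (0.0365%), among them those of Dnajb11 and Herpud1. The short element bound by Xbp1 and Atf6 in vitro, TGACGTGG, was in 222 windows (0.676%) and in 0 of the 29 genes. A match is a description of the sequence and not a measured binding site. The 250 bases before the start are given 5′ to 3′ on the gene's strand for Hspa5 (chr2:34771840-34772089, plus strand), the founding example of the class, for Dnajc3 (chr14:118937682-118937931, plus strand) and for Ssr1 (chr13:37994209-37994458, minus strand), with any ERSE in capitals.
Hspa5: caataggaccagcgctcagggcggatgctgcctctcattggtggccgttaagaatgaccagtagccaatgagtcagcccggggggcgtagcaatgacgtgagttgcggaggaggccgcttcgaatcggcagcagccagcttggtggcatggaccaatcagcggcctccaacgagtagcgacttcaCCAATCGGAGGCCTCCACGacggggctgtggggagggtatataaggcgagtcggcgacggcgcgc
Dnajc3: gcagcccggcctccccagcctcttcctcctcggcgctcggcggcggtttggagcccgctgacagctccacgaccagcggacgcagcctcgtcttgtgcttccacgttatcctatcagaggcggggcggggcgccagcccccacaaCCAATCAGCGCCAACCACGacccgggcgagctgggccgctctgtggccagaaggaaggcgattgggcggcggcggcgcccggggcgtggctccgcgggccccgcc
Ssr1: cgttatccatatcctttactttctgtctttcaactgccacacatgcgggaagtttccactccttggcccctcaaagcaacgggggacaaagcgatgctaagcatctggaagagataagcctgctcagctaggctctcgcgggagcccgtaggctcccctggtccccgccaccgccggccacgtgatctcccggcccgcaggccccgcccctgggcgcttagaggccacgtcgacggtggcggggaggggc
The ERSE sites of the other genes follow, to show how alike the fixed boxes and how unlike the spacers are, with the fixed letters in capitals and the spacer in lower case. Sites that read CGTGG first lie on the opposite strand.
Calr: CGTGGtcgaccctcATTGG
Canx: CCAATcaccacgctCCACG
Creld2: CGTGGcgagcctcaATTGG
Derl3: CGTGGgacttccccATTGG
Hsp90b1, upstream site: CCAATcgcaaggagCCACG
Hsp90b1, downstream site: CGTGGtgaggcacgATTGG
Pdia6: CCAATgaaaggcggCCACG
Syvn1: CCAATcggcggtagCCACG
Counted back from the start, the Hspa5 site lay at -65 to -47 and the Dnajc3 site at -105 to -87, and Hsp90b1 had 2 sites, at -212 to -194 and -107 to -89.

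Across the whole series, array medians ranged from 69.2 to 81.0 after scaling. Of 3 control probe sets for 18S ribosomal RNA, the one nearest the 3' end was lower in all 4 knockdown arrays, at 3712 to 6177, than in the controls, at 6875 and 8139.7, as was the middle one, while at the one nearest the 5' end sh3 replicate 1 (9437) lay above shNT replicate 2 (8517). The most abundant of the 3 Jmjd1c probe sets was lower in all 4 knockdown arrays than in both controls. Its log2 difference was -0.46 (limma adjusted p = 0.358, and 0.0745 with replicate number as a block). By hairpin it was -0.28 in sh3 and -0.64 in sh4 (limma adjusted p = 0.416 and 0.0394 with the block). The other 2 probe sets were higher in all 4 knockdown arrays. These gave 0.90 at 1448049_at (limma adjusted p = 0.117, and 0.0127 with the block) and 0.73 at 1439998_at (limma adjusted p = 0.439). At 1448049_at sh3 had 0.87 and sh4 0.93 (limma adjusted p = 0.0400 and 0.0219 with the block). The 3 probe sets thus did not share a direction, and the groups are called by their labels. All 10 stem cell markers examined were detected, with summed signals of 108722 to 129268 in shNT, 94869 to 100847 in sh3 and 101922 to 106974 in sh4. With both hairpins averaged against shNT, 0 of the 10 passed by limma at an adjusted p under 0.05. With replicate number as a block, 4 were lower (Dppa5a, Esrrb, Nanog and Sox2), beside 2.26% of all genes. Of 12 feeder fibroblast markers 9 were above the limit on low signal, and their list summed to 2605 to 2739 in shNT, 3253 to 3373 in sh3 and 3992 to 4021 in sh4, with Lum, Postn and Col6a1 below the limit. In the same average 1 of these 9 was higher by limma, beside 0.56% of all genes. With the block 2 were (Col3a1 and Dcn), beside 3.33%. Of 13 markers of primitive and parietal endoderm, secretory cells rich in ER, 11 were above the limit, and the list summed to 4752 to 4761, 5682 to 6116 and 8584 to 8880, with Afp and Ttr below it. Of these 11, 1 was higher in that average by limma, beside 0.56% of all genes. With the block 4 were (Col4a1, Col4a2, Dab2 and Plat), beside 3.33%. In sh4 minus sh3 with the block 4 were higher (Col4a1, Col4a2, Dab2 and Lama1), beside 0.173%. Of 4 plasma cell and pancreas genes, Jchain, Cpa1 and Ptf1a were below the limit, and Prdm1, which other cell types also use, was above it. This list summed to 844 to 1035 in shNT, 396 to 480 in sh3 and 330 to 376 in sh4, and Prdm1 fell in the knockdown mean (log2 -1.31, limma adjusted p = 0.0225) and in sh4 (log2 -1.46, limma adjusted p = 0.0314). The part of these markers in the ER results was not tested, and in such bulk samples fewer cells of a type and less RNA per cell cannot be told apart.

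The share of ER genes that passed a test between knockdown and control cells was near that of all genes. With both hairpins averaged against shNT (the knockdown mean), 0 of 34 genes passed at an adjusted p under 0.05 by limma, where 0.725% of all 12684 genes did. When the fit included replicate number as a blocking term, called the block below, 2 of 34 passed by limma, Manf, which rose, and Dnajc3, which fell, beside 5.6% of all genes. At an unadjusted p under 0.05, 5 of 34 passed by limma (Derl2, Dnajc3, Manf, Sec61b and Ssr1), beside 12.3% of all genes. The log2 differences ran from -0.45 for Dnajc3 to 0.36 for Manf, 30 of 34 lay within 0.25 of 0, as did 67.4% of all genes, and their median was 0.05, beside 0.01 over all genes tested. In sh3 alone, 0 of 34 passed by limma (0.071% of all genes), and 3 of 34 did at an unadjusted p under 0.05, beside 9.74% of all genes. In sh4 alone, 1 of 34 passed by limma, Dnajc3, which fell, where 0.363% of all genes passed in either direction and 0.0788% were lower. With the block 3 of 34 passed in sh4 by limma, Dnajc3, Ssr1 and Manf (4.9% of all genes), and 0 in sh3 (3.43%). Both hairpins were compared with the same 2 control arrays. The depth of the design bears on the rest: the median 95% interval of a gene reached 0.28 on either side of its knockdown mean, and 24 of 34 intervals lay within 0.5 of 0, as did all 34 within 1.

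**Figure D1:**
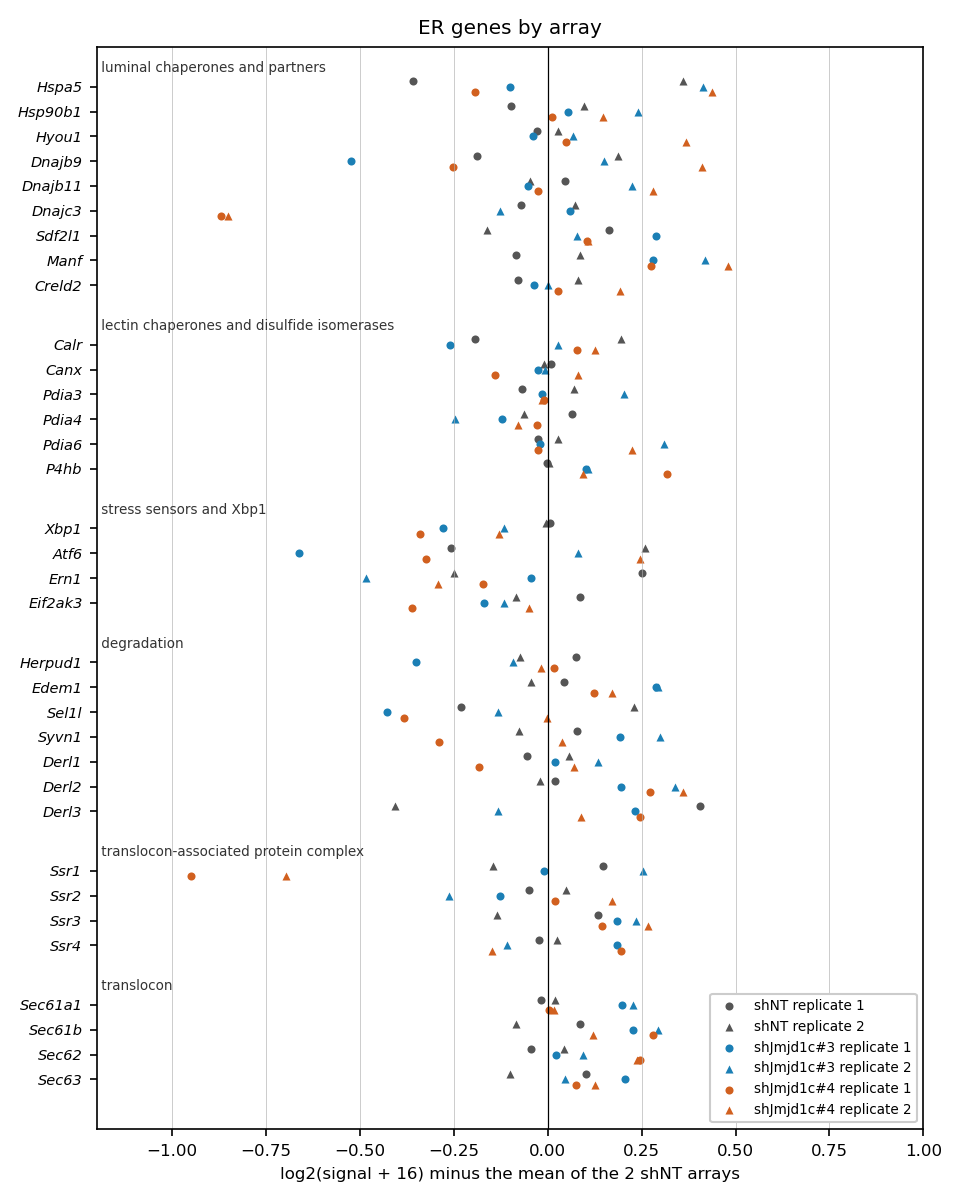
Each symbol is 1 array's log2(signal + 16) for 1 gene minus the mean of the 2 shNT arrays, with the 34 genes in rows grouped by role, circles for replicate 1 and triangles for replicate 2. Both sh4 symbols of Dnajc3 and Ssr1 lie far to the left of the other 4 arrays, and the triangles of Hspa5 lie to the right of its circles in every group.

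Among the luminal chaperones and their partners, 7 of 9 had a positive knockdown mean (median log2 0.11), beside 6554 of all 12684 genes. In it 0 of the 9 passed by limma, and 2 did at an unadjusted p under 0.05, beside 12.3% of all genes. Hspa5, the main Hsp70 chaperone of the ER and the usual read-out of ER stress, read 9545 and 15715 in shNT, 11419.7 and 16309 in sh3, and 10697 and 16586 in sh4 (linear MAS5 signal, replicates 1 and 2). The groups overlapped, and within each the second replicate was the higher. Its knockdown mean on the log2 scale was 0.14 (SE 0.24, 95% interval -0.40 to 0.68, limma adjusted p = 0.876), a value that turned to -0.22 without shNT replicate 1 and reached 0.50 without shNT replicate 2. Hsp90b1, the Hsp90 chaperone of the ER, read 10287 and 11775, then 11427 and 12992, then 11091 and 12194 in shNT, sh3 and sh4. These too overlapped, at a log2 difference of 0.11 (SE 0.11, limma adjusted p = 0.739). At the other Hsp90b1 probe set, 1438040_a_at, the groups also overlapped, at -0.10. For Hyou1, Dnajb9, Dnajb11, Sdf2l1 and Creld2, which serve or regulate BiP or are induced with it, knockdown means lay between -0.05 and 0.14 and the knockdown arrays as a whole overlapped the controls. Both sh4 arrays of Hyou1 lay above its controls (1405 and 1757 against 1331 and 1384). At its dimmer 1423290_at and 1451913_a_at all 4 knockdown arrays did (log2 0.40 and 0.48, limma adjusted p = 0.649 and 0.759 over all probe sets).

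Manf, a small luminal protein that is also secreted and is induced by ER stress, had the highest knockdown mean of the class. It read 2909.8 and 3277 in shNT, 3753 and 4133 in sh3, and 3743 and 4317 in sh4. All 4 knockdown arrays lay above both controls, at 127% of the control mean in sh3 and 130% in sh4. The log2 difference of the knockdown mean was 0.36 (SE 0.11, limma adjusted p = 0.220), which missed the threshold. It did pass with the block (SE 0.077, limma adjusted p = 0.0210), as did sh4 alone (log2 0.38, limma adjusted p = 0.278 without and 0.0343 with the block), while sh3 did not (log2 0.35, limma adjusted p = 0.394 and 0.0590). The difference between the hairpins was 0.03 (95% interval -0.26 to 0.32).

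Dnajc3 (p58IPK), a co-chaperone of BiP that is also known as an inhibitor of the PERK kinase, fell in sh4. Its signals were 1307 and 1444 in shNT, 1432 and 1256 in sh3, and 744 and 755 in sh4. Both sh4 arrays lay below the other 4, which overlapped each other, and the sh4 mean was 54.5% of control against 97.7% in sh3. The log2 difference was -0.86 in sh4 (SE 0.14, limma adjusted p = 0.0456) and -0.03 in sh3 (SE 0.14, limma adjusted p = 0.964). Between the hairpins it was -0.83 (SE 0.14, 95% interval -1.14 to -0.51), which did not pass (limma adjusted p = 0.352) and passed with the replicate block (limma adjusted p = 0.0219). With the block the sh4 difference had an adjusted p of 0.00313 and the knockdown mean of -0.45 one of 0.0364 by limma, against 0.174 without it. The sh4 call stood close to the threshold: it was lost without any 1 of the 6 arrays (limma adjusted p = 0.0772 to 0.239) and, among other settings, with all its probe sets averaged (log2 -0.44, limma adjusted p = 0.369).

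The other probe sets of Dnajc3 did not all show this size. Probe set 1419163_s_at read 441 and 360 in shNT, 354 and 303 in sh3, and 249 and 233 in sh4, a log2 difference of -0.69 in sh4. At 1449372_at, with 734 and 602, 704 and 554, and 418 and 572, both sh4 arrays lay below the controls but overlapped sh3, and the sh4 difference was -0.43. Probe set 1449373_at gave -0.35 in sh4 with overlapping groups. Probe set 1419162_s_at gave 0.14 in sh4, which overlapped the controls, while both sh3 arrays there lay above them (161 and 148 against 131 and 132). Over all probe sets of the array, with no limit on low signal, no Dnajc3 probe set passed in sh4 without the block by limma (adjusted p = 0.114 for the kept one).

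**Figure D2:**
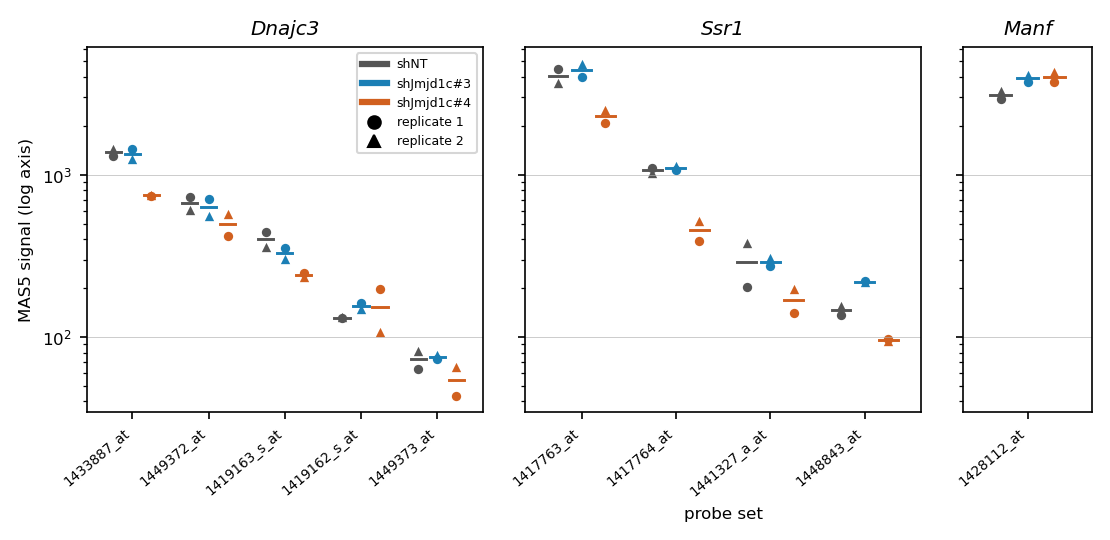
MAS5 signal on a log axis for every probe set of Dnajc3, Ssr1 and Manf, with 1 symbol per array and a line at each group mean. The sh4 symbols lie below shNT and sh3 at all 4 Ssr1 probe sets and at the Dnajc3 probe set with the highest mean (744 and 755 against 1256 to 1444), and Manf lies higher under both hairpins.

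The lectin chaperones and disulfide isomerases were split evenly, with 3 of 6 positive in the knockdown mean and a median log2 difference of 0.02. Canx (calnexin), the membrane lectin chaperone, read 16849.5 and 16646 in shNT, 16461 and 16664 in sh3, and 15183 and 17701 in sh4, overlapping throughout (log2 -0.02, 95% interval -0.24 to 0.20). At its dimmer 1428935_at all 4 knockdown arrays lay below both controls (1173 and 1054 against 941, 937, 848 and 973, log2 -0.26). At 1422845_at the groups overlapped. P4hb, the archetypal protein disulfide isomerase and a subunit of collagen prolyl 4-hydroxylase, read 9552 and 9593, then 10276 and 10313, then 11928 and 10212 in shNT, sh3 and sh4. All 4 knockdown arrays of P4hb were above both controls, at a log2 difference of 0.15 that did not pass (SE 0.097, limma adjusted p = 0.579). Pdia6, an isomerase that works with BiP, read 2470.4 and 2566, 2480.1 and 3126, and 2473 and 2942 in the 3 groups. The lower array of each knockdown group lay within the control range (log2 0.12, limma adjusted p = 0.773). Pdia4, a multi-domain isomerase, read 1412 and 1291, 1240.0 and 1135, and 1324 and 1277. Its sh3 arrays lay below both controls and its sh4 arrays did not, and the knockdown mean was -0.12 (limma adjusted p = 0.745). Calr (calreticulin, the soluble lectin chaperone) and Pdia3 (ERp57, its partner isomerase) had knockdown means of -0.01 and 0.04 with overlapping groups.

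At their kept probe sets, Xbp1 and the 3 stress sensors all had negative knockdown means, between -0.25 and -0.17. Over all 12684 genes 6130 were negative. By limma 0 of the 4 passed (0 at an unadjusted p under 0.05, beside 12.3% of all genes). Xbp1, the transcription factor whose mRNA is spliced by IRE1 during stress, read 6854 and 6798 in shNT, 5624 and 6291 in sh3, and 5391 and 6237 in sh4. All 4 knockdown arrays lay below both controls, and Xbp1 was the only 1 of the 34 genes of which that was true, where 9.54% of all genes were. Its log2 difference was -0.22 (SE 0.10, 95% interval -0.45 to 0.02, limma adjusted p = 0.440). Of its other probe sets, 1420886_a_at also had all 4 knockdown arrays below both controls, with 2629 and 2611 in shNT, 2581 and 2412 in sh3, and 2009 and 2239 in sh4. At 1420011_s_at the sh3 arrays were above the controls (1449.9 and 1453 against 1443 and 1294) and the sh4 arrays below (1153 and 1218). The spliced form of Xbp1 mRNA was not analysed here. Ern1, the IRE1 gene, read 406 and 283, 329 and 238, and 299 and 274 in shNT, sh3 and sh4, overlapping, with a knockdown mean of -0.25 that came to 0.0026 without shNT replicate 1. Its other probe set above the limit on low signal, 1438583_at, gave 0.09, with both sh3 arrays below the controls and both sh4 arrays above. Eif2ak3, the PERK gene, read 1217 and 1081, 1019 and 1058, and 889.8 and 1108. Only its sh3 arrays were clear of the controls, at a knockdown mean of -0.17 (limma adjusted p = 0.669). For Atf6, the sensor that is itself a transcription factor once cleaved, the knockdown mean was -0.17 (95% interval -0.75 to 0.42). The other Atf6 probe sets had positive values, 0.09 at 1453288_at and 0.12 at 1456021_at, so its direction rests on the choice of probe set.

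In the degradation group 5 of 7 genes were positive in the knockdown mean (median log2 0.06), beside 6554 of all 12684 genes. Of the 7, 0 passed by limma, and 1 did at an unadjusted p under 0.05, beside 12.3% of all genes. Derl2, of the derlin family that helps move proteins out of the ER, read 1452 and 1412 in shNT, 1642 and 1817 in sh3, and 1732 and 1841 in sh4. All 4 knockdown arrays lay above both controls, at a log2 difference of 0.29 (SE 0.11, limma adjusted p = 0.310). The gene's other probe set, 1435101_at, went the other way, with 704 and 724 in shNT against 527 and 585 in sh3 and 614 and 727 in sh4, so the direction for Derl2 rests on the choice of probe set. Edem1, a lectin that routes misfolded glycoproteins to degradation, read 1051 and 988, 1248 and 1253, and 1111 and 1150.0 in the 3 groups. Again all 4 knockdown arrays were above both controls (log2 0.22, SE 0.11, limma adjusted p = 0.472), and its second probe set gave 0.23 with groups that overlapped in sh4. Sel1l, the scaffold of the Hrd1 ligase complex, read 765 and 1058, 665 and 819, and 687 and 899, which overlapped. Its knockdown mean was -0.24 (limma adjusted p = 0.670), and came to -0.47 without shNT replicate 1 and -0.0060 without shNT replicate 2. Its dimmer probe sets gave 0.33 at 1425187_at, 0.56 at 1425188_s_at and -0.29 at 1430692_a_at, so its direction too rests on the choice of probe set. Derl1 read 4367 and 4722, 4602 and 4979.8, and 3998 and 4769, with no separation of the groups (log2 0.01, 95% interval -0.23 to 0.25). Herpud1, a membrane protein of the same ligase complex, had both sh3 arrays below the controls (516 and 621 against 699 and 629), sh4 overlapping and a knockdown mean of -0.11. At its other probe set, 1435626_a_at, sh4 was below the controls (281 and 259 against 344 and 330) and sh3 overlapped. Syvn1, the ligase of that complex, had both sh3 arrays above the controls (881 and 951 against 814 and 729), sh4 overlapping and a knockdown mean of 0.06. At its other probe set, 1428070_at, all 4 knockdown arrays were above both controls (log2 0.23). Derl3 had 0.11 with overlap.

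Among the 4 subunits of the TRAP complex, which sits beside the Sec61 channel, Ssr1 had the lowest sh4 value. Ssr1, the alpha subunit, read 4497 and 3664 in shNT, 4029 and 4843 in sh3, and 2092 and 2498 in sh4. Both sh4 arrays lay below the other 4, at 56.2% of the control mean, and sh3 stood at 109%. The log2 difference was -0.82 in sh4 (SE 0.15, limma adjusted p = 0.0705, and 0.00476 with the replicate block) and 0.12 in sh3 (SE 0.15, limma adjusted p = 0.856). Without the block it therefore missed the threshold. The difference between the hairpins was -0.95 (SE 0.15, 95% interval -1.29 to -0.60, limma adjusted p = 0.352), and it passed with the block (limma adjusted p = 0.0168).

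All 4 probe sets of Ssr1 had both sh4 arrays below both controls and both sh3 arrays. At 1417764_at the signals were 1100.4 and 1028 in shNT, 1063 and 1138 in sh3, and 392 and 517 in sh4, a log2 difference of -1.21 in sh4. At 1448843_at they were 137 and 154, 222 and 217, and 97.2 and 93.7, so that sh3 there lay above the controls and sh4 below them. The summed fibroblast and endoderm markers were also farther from control in sh4 than in sh3, and their part in the Ssr1 and Dnajc3 values was not tested. The fourth, 1441327_a_at, gave -0.69 in sh4. In the test over all probe sets, adjusted p in sh4 by limma was 0.184 for the kept one and 0.0721 for 1417764_at, and 0.0234 and 0.00572 with the block.

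The other subunits had values nearer to control in sh4. Ssr2, the beta subunit, read 2587 and 2770.2 in shNT, 2451 and 2229.9 in sh3, and 2712 and 3015 in sh4. The sh3 arrays were below the controls and the sh4 arrays above the sh3 arrays, at a difference between hairpins of 0.29 (95% interval 0.02 to 0.56, limma adjusted p = 0.814). Ssr3, the gamma subunit, read 7848 and 6509, 8128 and 8407, and 7901 and 8601, all 4 knockdown arrays above both controls (log2 0.21, SE 0.11, limma adjusted p = 0.476), while its other probe set gave 0.05 with overlapping groups. Ssr4, the delta subunit, had a knockdown mean of 0.03 and overlapped. In sh4 the 95% interval of Ssr1 ran from -1.17 to -0.48, and those of Ssr2, Ssr3 and Ssr4 from -0.18 to 0.37, -0.07 to 0.48 and -0.32 to 0.37.

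At their kept probe sets the 4 measured genes of the translocon all had positive knockdown means, from 0.11 to 0.23 (median 0.13). Over all 12684 genes 6554 were positive. Of the 4, 0 passed by limma, and 1 did at an unadjusted p under 0.05, beside 12.3% of all genes. Sec61b, the small beta subunit of the channel, read 9924 and 8823 in shNT, 10952 and 11479 in sh3, and 11367 and 10171 in sh4. All 4 knockdown arrays were above both controls, at a log2 difference of 0.23 (SE 0.099, limma adjusted p = 0.392, and 0.0945 with the block). Sec61a1, which forms the pore, read 5355 and 5496, 6227 and 6355, and 5435 and 5491. Its sh3 arrays were above both controls and its sh4 arrays lay within the control range, with log2 differences of 0.21 in sh3 (limma adjusted p = 0.542) and 0.01 in sh4. Sec62, which helps import short and post-translationally delivered proteins, read 3281 and 3489, 3435 and 3615, and 4011 and 3991. Here both sh4 arrays were above the other 4 (log2 0.24 in sh4, limma adjusted p = 0.419). At the kept probe sets no other of the 34 genes showed that, beside 9.3% of all genes. The other Sec62 probe sets differed in direction. At 1455698_at all 4 knockdown arrays lay below both controls (883 and 828 against 726, 727, 617 and 755). At the dimmer 1444811_at all 4 lay above both controls, and 1433704_s_at and 1432635_a_at overlapped. Sec63, a partner that recruits BiP to the channel, had a knockdown mean of 0.11 with overlap. Its other probe sets ran from -0.19 at 1452854_at to 0.31 at 1424924_at.

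Counted by separation of the arrays alone, 6 of 34 genes had all 4 knockdown arrays above both controls: Derl2, Edem1, Manf, P4hb, Sec61b and Ssr3. That compares with 11.2% of all genes tested. Lower in both sh4 arrays than in the other 4 were Dnajc3 and Ssr1, 2 of 34, beside 7.95% of all genes. In sh4 minus sh3, 0 of 34 genes passed by limma, as did 0 of 12684 (0%), and 3 of 34 did at an unadjusted p under 0.05, namely Dnajc3, Ssr1 and Ssr2, beside 6.1% of all genes. With the replicate number as a block, 2 of 34 passed there by limma, Dnajc3 and Ssr1 (0.418% of all genes). At an unadjusted p under 0.05 with the block, 6 of 34 passed in sh3, beside 17.7% of all genes.

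**Figure D3:**
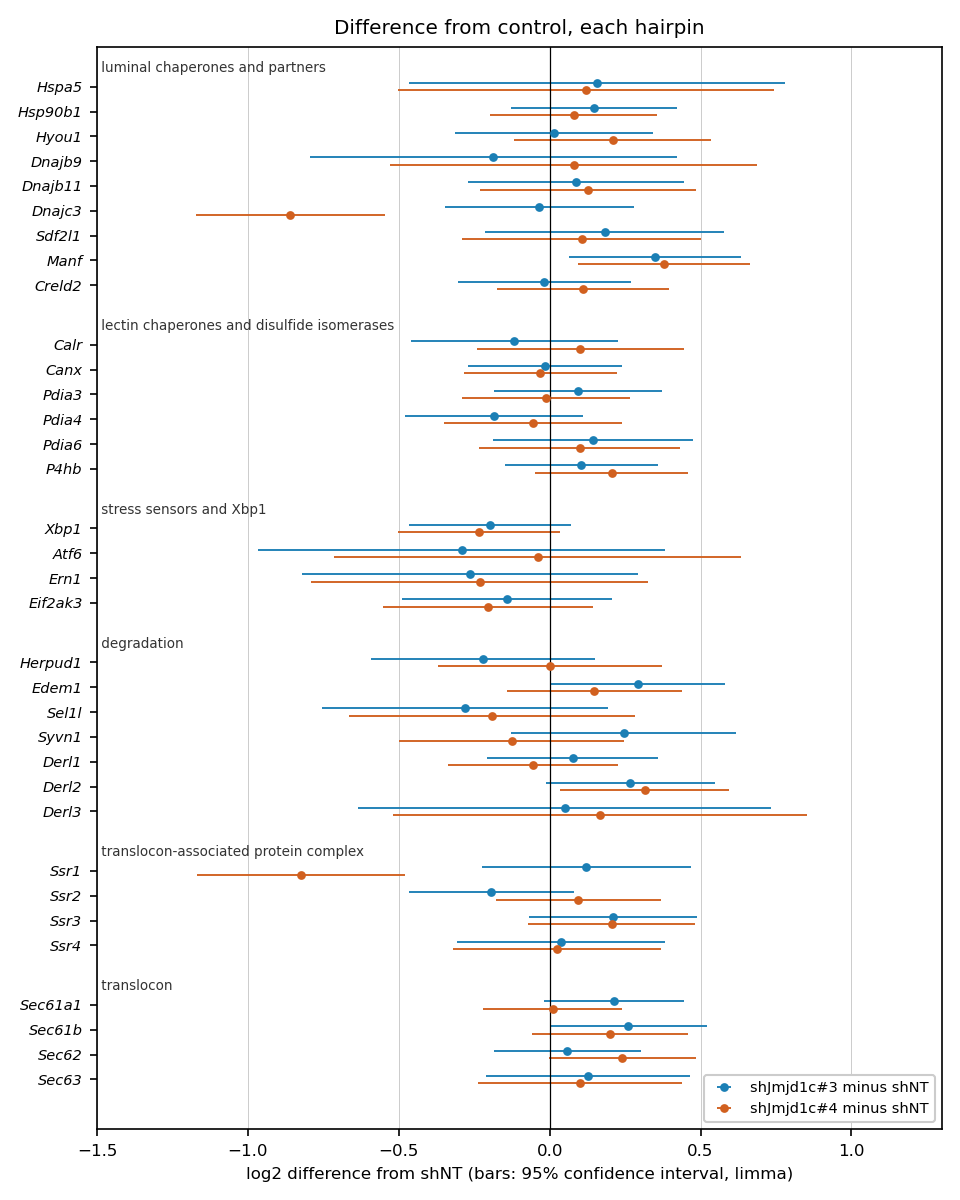
Log2 difference from shNT for each of the 34 genes under each hairpin, with 95% confidence intervals from limma as bars, sh3 in blue and sh4 in orange. The sh4 points of Dnajc3 (-0.86) and Ssr1 (-0.82) stand apart from their sh3 points, while those of Manf (0.35 and 0.38) coincide.

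At their kept probe sets, several ER genes differed between the replicates within every group. Hspa5 was higher in replicate 2 by 0.72 on the log2 scale in shNT, 0.51 in sh3 and 0.63 in sh4. Atf6 was higher there by 0.52, 0.74 and 0.57, Dnajb9 (ERdj4, a BiP co-chaperone) by 0.38, 0.67 and 0.66, and Sel1l by 0.46, 0.30 and 0.38. These 4 of 34 genes exceeded 0.25 in every group, which 3.17% of all genes did. In all, 12 of 34 were above in replicate 2 in every group, beside 18.8% of all genes, and 3 of 34, Derl3, Ern1 and Pdia4, were below, beside 24.5%. The middle 90% of all genes ran from -0.79 to 0.62 in shNT, from -0.60 to 0.52 in sh3 and from -0.71 to 0.56 in sh4. With the replicate block, the standard error of the Hspa5 knockdown mean went from 0.24 to 0.067 and the adjusted p from 0.876 to 0.277 by limma.

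The replicate patterns of Hspa5, Atf6 and Sel1l depended on the probe set, and Dnajb9 had only 1. For Atf6, replicate 2 was the lower in shNT at 1453288_at (232 and 178) and at 1456021_at (321 and 302). For Sel1l it was the lower in shNT (305 and 223) and sh4 (334 and 235) at 1425187_at. For Hspa5, probe set 1427464_s_at resembled the kept one, with 3715 and 6337 in shNT, 5203 and 7362 in sh3, and 4578 and 7076 in sh4. Probe set 1447824_x_at read 871 and 863, 1128 and 1167, and 990.4 and 940.3, without a difference between replicates, and with all 4 knockdown arrays above both controls (log2 0.27, limma adjusted p = 0.547 over all probe sets). The Actb control probe set nearest the 3' end was also higher in replicate 2, at 26901 and 34878 in shNT, 25133 and 29665 in sh3, and 27315 and 34170.4 in sh4, and its part in the Hspa5 values was not tested.

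**Figure D4:**
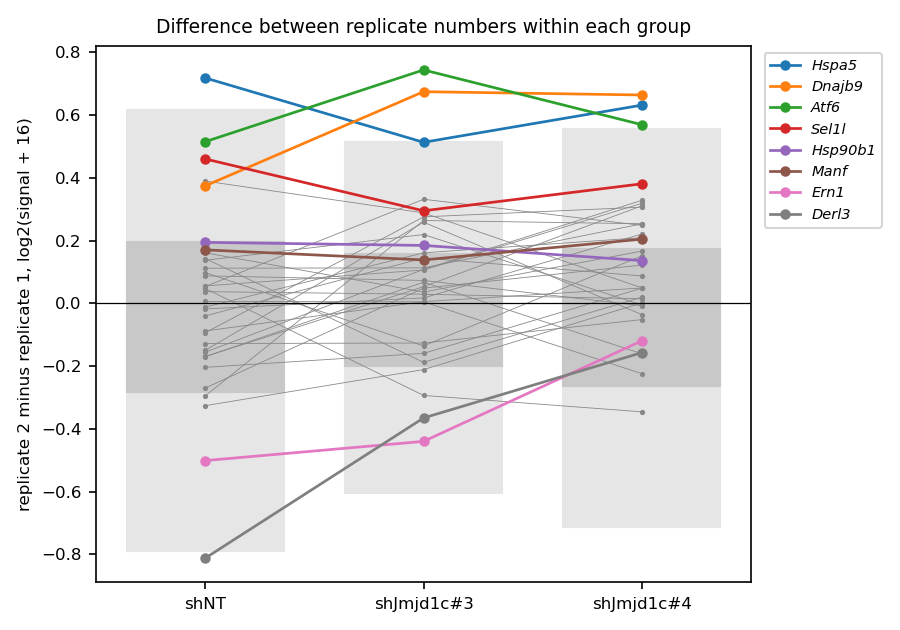
Log2(signal + 16) of replicate 2 minus replicate 1 in each group, with 1 line per gene, 8 of them in colour, and shaded bands for the middle 50% (dark) and the middle 90% (light) of all 12684 genes. Hspa5, Atf6, Dnajb9 and Sel1l stay above 0.25 in all 3 groups, and Derl3 and Ern1 stay below 0.

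The genes with an ERSE in their promoter window had values like those of the class. Their knockdown means ran from -0.45 (Dnajc3) to 0.14 (Hspa5) with a median of 0.06 over 9 genes, and the 17 measured genes whose window had neither ERSE nor ERSE-II ran from -0.35 to 0.29 with a median of 0.04. In sh4, where Dnajc3 read -0.86, Hspa5 read 0.12 and Hsp90b1 0.08. Of the 2 genes with the lowest sh4 values, Dnajc3 had an exact match to the ERSE in its window and Ssr1 had none. The search allowed no mismatch in the fixed letters, and the part of the element in these values was not tested.

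Other genes of the secretory pathway were read from 12 lists, with 113 of 114 genes above the limit on low signal. In the knockdown mean 1 rose, the collagen chaperone Serpinh1 (log2 1.24, limma adjusted p = 0.0394), and 1 fell, the stress regulator Nupr1 (log2 -1.46, limma adjusted p = 0.0279), and the median was 0.06, where 0.56% of all genes were called higher and 0.166% lower. With the replicate block 6 of 113 were higher and 4 lower, beside 3.33% and 2.26% of all genes. Among the higher were Dad1 and Krtcap2, both subunits of the oligosaccharyltransferase that glycosylates incoming proteins, 2 of 11 in that list, where 3.33% of all genes were higher. Dad1 read 2329 and 2858 in shNT, 3259 and 3453 in sh3, and 3619.8 and 3305 in sh4, all 4 knockdown arrays above both controls (log2 0.40, limma adjusted p = 0.204 without and 0.0346 with the block). Krtcap2 gave 0.39 (limma adjusted p = 0.199 and 0.0391). The translocon partner Serp1 gave 0.33, the prolyl isomerase Fkbp14 0.79 and the cargo receptor Lman1 0.37, each with an adjusted p under 0.05 by limma only with the block.

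Lower with the block were Asns (log2 -0.39), Trib3 (-0.58) and Nupr1, 3 of the 9 genes in the list for the PERK and ATF4 arm, where 2.26% of all genes were lower, and Kdelr3, a receptor that returns chaperones to the ER. Kdelr3 read 511 and 561 in shNT, 203 and 285 in sh3, and 364 and 368 in sh4, all 4 knockdown arrays below both controls (log2 -0.82, limma adjusted p = 0.111 without and 0.0107 with the block). In the same list Ddit3, the transcription factor CHOP that marks strong ER stress, had -0.25 (limma adjusted p = 0.633), and Atf4 itself -0.02. Among the 8 genes of the signal recognition particle and its receptor, the 5 of the signal peptidase, the 16 of retrotranslocation and the 6 of the calcium store, 0 passed in the knockdown mean with or without the block by limma, and 5 of these 35 did at an unadjusted p under 0.05, beside 12.3% of all genes.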

How the data were processed

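Each sample's total RNA (6 ug) was labelled with biotin and read on its own Affymetrix mouse expression array, per the labels' protocols. The values deposited by the authors are signal intensity on a linear scale, which the submitters' processing notes credit to MAS5 (its version was not given in the sources used here). On every array the middle 96% of values averaged 500.003, so the values had been scaled per array, and no further background correction or normalization was applied.

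Signals were turned into log2(signal + 16), which understates the change of dim genes. The array held 45101 probe sets, 64 of them controls: 34945 had 1 symbol, 932 several and 9160 none in the platform annotation, and only the first kind was named. For each gene the probe set with the highest mean was kept (14 of the 34 kept here end in _s_at, _x_at or _a_at and may also detect related or alternative transcripts), and genes at or above the 40th percentile (log2 5.81, a signal of 40.12) were tested. A linear model of 3 group means over 6 arrays was fitted with limma 3.58.1 (R 4.3.3; residual df 3, prior df 5.96) with a moderated trend, 2-sided tests and Benjamini-Hochberg adjustment over all 12684 genes at 0.05. P-values rest on the spread between arrays of a group, pooled over the 3 groups and moderated over all genes. With the block they rest on the spread left after the replicate term is removed. All probe sets of the ER genes were also tested over every probe set without controls and without the limit on low signal. Errors are standard errors from limma. The fit without the block was tested on simulated data, for the knockdown mean only. That simulation had independent noise on each array and no replicate effect, so it does not bear on the values with the block.

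Replicate numbers come from the titles. After subtraction of group means, arrays with the same number correlated at 0.302 (shNT and sh3), 0.223 (shNT and sh4) and 0.300 (sh3 and sh4) over 12684 genes. The numbers were taken to pair the samples, which is an inference from these data, and values with the number as a block (residual df 2, prior df 9.34) are given where they change a call. Genes given array by array were those past the threshold in any contrast, with or without the block, and in each role the 3 with the smallest p and the 1 with the highest signal. Alternatives covered the added constant, the limit on low signal, quantile and median scaling, the choice of probe sets, the trend, the arrays fitted and leaving out each array. The genes, lists and tests were chosen with earlier results of these data known. Promoter sequences and starts are RefSeq's (GRCm38.p6), and 6 measured genes (Atf6, Derl1, Hyou1, Manf, Sec61a1 and Ssr2) had no window.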

Additional observations from a re-analysis of the deposited data

Results flagged for a closer look

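The difference between the hairpins, sh4 minus sh3, was tested directly. With the replicate number as a block it passed for Dnajc3, at a log2 difference of -0.83 (limma adjusted p = 0.0219), and for Ssr1, at -0.95 (limma adjusted p = 0.0168). Both genes were lower in both sh4 arrays than in both sh3 arrays, and neither passed without the block (limma adjusted p = 0.352 for each).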

How the results depend on the processing

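With 2 arrays per group, precision is limited by replicate spread, and a signal near the limit on low values would carry little information, though no kept probe set was that dim. With the replicate block, the genes called numbered 2 in the knockdown mean, 3 in sh4 and 2 in sh4 minus sh3, against 0, 1 and 0 without it. The 1 sh4 call became 0 with an added constant of 1, no limit on low signal, a 60th percentile limit, quantile normalization, the mean of all probe sets, no _s_at, _x_at or _a_at probe sets, no trend, only the groups compared, and in each fit that left out an array (0 to 0), with the direction of Dnajc3 kept in all 17 alternatives (limma adjusted p = 0.00313 to 0.369). The cause was not tested. Over all genes the calls ranged from 0 to 710 in the knockdown mean (92 as reported), 0 to 435 in sh3 (9), 3 to 622 in sh4 (46) and 0 to 53 between hairpins (0).

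Median centring turned the median of the ER genes to -0.022 in the knockdown mean and in sh4, and to -0.078 in sh4 minus sh3, and moved the median of all genes to -0.06 in the knockdown mean. Leaving out an array gave medians of 0.0049 to 0.094 in the knockdown mean, -0.013 to 0.088 in sh3, 0.0068 to 0.11 in sh4 and -0.070 to 0.074 in sh4 minus sh3.

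Genes that did not pass could change sign in the knockdown mean. Leaving out an array gave -0.22 to 0.50 for Hspa5, -0.079 to 0.032 for Canx, -0.50 to 0.0026 for Ern1 and -0.054 to 0.073 for Derl1. Averaging all probe sets gave 0.25 for Pdia4, -0.031 for Pdia6 and 0.029 for Sel1l. Canx came to 0.0024 with quantile normalization and 0.058 without _s_at, _x_at and _a_at probe sets, and Derl1 to -0.065 with median centring. Manf, Ssr1, Derl2, Edem1, Xbp1 and Sec61b kept their sign in all 17 alternatives, though Derl2 came to 0.034 with all its probe sets averaged. Manf and Sec61b have 1 probe set each, so the choice of probe sets could not change their sign.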
